A study of Homo sapiens with 18 samples.

Results

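The genes described here encode the machinery that copies DNA in S phase, measured in U937 cells, a long-established human line with monocytic features that came from a histiocytic lymphoma. They were chosen by symbol: the MCM, GINS, ORC, RFC, RPA and PRIM families, the replicative polymerase genes (POLA, POLD, POLE), and CDC6, CDC7, CDC45, CDT1, PCNA, FEN1, LIG1, TYMS, RRM1, RRM2, DUT, DBF4, WDHD1 and TIPIN. The rule names 54 symbols, and 26 of the 14884 genes tested carried one of them. The other 28, which hold all ORC, polymerase, primase, RFC and RPA genes and LIG1, were not analysed here. Values are log2 signals from Affymetrix arrays, 18 in all, 3 in each of 6 groups. The groups were untreated control cells, cells given decitabine in 3 pulses of 24 h, cells given panobinostat or valproic acid for 24 h, and cells given decitabine with either inhibitor, which was added with the last pulse. Decitabine resembles cytosine and, once built into DNA, traps DNA methyltransferases, and panobinostat and valproic acid inhibit histone deacetylases. The labels give the agents the numbers 50, 8 and 1 with no unit, so the inhibitors' doses could not be matched. All groups are the same cell line in the same medium with fetal calf serum.

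Replication starts when licensing factors load a double ring of the 6 MCM2 to MCM7 subunits onto origins before S phase. Kinases then turn the rings into active helicases by recruiting CDC45 and the GINS complex. The sliding clamp PCNA holds the polymerases on DNA, and a separate set of enzymes makes and balances the deoxynucleotides. In cycling cells many of these genes are transcribed as cells enter S phase, under E2F transcription factors. Decitabine acts only once replication has placed it in DNA.

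The promoters of 5 of the genes are shown because all 5 were lower in decitabine plus panobinostat. Their windows differ in the E2F and NF-Y letters that were searched for. Each line gives the 250 bases before the transcription start in RefSeq (GRCh38.p14), read 5′ to 3′ on the gene's strand. Capitals mark the E2F octamers TTTCCCGC, TTTCGCGC, TTTGCCGC and TTTGGCGC and the NF-Y pentamer CCAAT, on either strand; overlapping octamers run together.
GINS2, chr16:85688955-85689204, minus strand: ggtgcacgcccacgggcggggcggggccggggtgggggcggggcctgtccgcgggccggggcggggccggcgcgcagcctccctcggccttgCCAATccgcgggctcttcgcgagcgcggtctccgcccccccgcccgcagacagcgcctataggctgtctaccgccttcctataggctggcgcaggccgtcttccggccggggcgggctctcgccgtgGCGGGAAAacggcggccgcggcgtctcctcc
MCM6, chr2:135876444-135876693, minus strand: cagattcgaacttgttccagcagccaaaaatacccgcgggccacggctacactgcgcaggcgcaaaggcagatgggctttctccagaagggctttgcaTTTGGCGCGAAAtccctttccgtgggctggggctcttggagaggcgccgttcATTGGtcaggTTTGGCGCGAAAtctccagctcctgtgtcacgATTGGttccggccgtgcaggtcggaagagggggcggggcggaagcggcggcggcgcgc
TYMS, chr18:657403-657652, plus strand: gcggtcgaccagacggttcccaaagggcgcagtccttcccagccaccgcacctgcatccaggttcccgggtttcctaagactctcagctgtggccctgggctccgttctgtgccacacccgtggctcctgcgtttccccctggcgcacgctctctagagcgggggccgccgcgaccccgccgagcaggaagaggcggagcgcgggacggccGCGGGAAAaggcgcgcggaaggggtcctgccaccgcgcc
CDC6, chr17:40287629-40287878, plus strand: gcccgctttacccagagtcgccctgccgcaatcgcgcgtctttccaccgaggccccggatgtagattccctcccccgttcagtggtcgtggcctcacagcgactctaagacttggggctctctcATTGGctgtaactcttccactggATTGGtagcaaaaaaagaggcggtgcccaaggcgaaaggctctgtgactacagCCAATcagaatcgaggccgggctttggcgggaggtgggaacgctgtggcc
GINS3, chr16:58392221-58392470, plus strand: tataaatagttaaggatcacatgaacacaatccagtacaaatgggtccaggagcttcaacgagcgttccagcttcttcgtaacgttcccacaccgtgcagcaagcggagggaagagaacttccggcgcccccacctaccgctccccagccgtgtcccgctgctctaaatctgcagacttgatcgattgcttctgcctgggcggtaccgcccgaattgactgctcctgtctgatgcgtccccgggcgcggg
The GINS2 window holds 1 octamer, starting 31 bases before the start site, and 1 CCAAT. In MCM6 there are 4 octamers in 2 overlapping pairs and 2 CCAAT. TYMS has 1 octamer, 39 bases before the start. The CDC6 window holds 3 CCAAT and none of these octamers. Only these exact letters were searched for, so a window without them may hold other E2F sites. GINS3, which fell most of the 26 genes, has none of these letters in its window.

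RefSeq promoters were used for 23 of the 26 genes, with 34 start sites. An E2F octamer was present before at least 1 start of 10 of the 23 genes (43.5%), against 3.40% of all 27305 genes with a promoter window. CCAAT was present in 14 of the 23 (60.9%), against 37.0%. The median window of the replication genes held 23 CpG pairs, against 11 over all promoters. A match is a description of the letters and no measure of binding. With decitabine plus panobinostat against control, 8 of the 10 genes with an octamer and 11 of the 13 without were lower, with median changes of -0.58 and -0.56 on the log2 scale. This splits the genes by the exact octamers only. Those without one may hold other E2F sites, so the part of E2F sites was not tested.

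Each gene was represented by its brightest probe set. Among the 26, only GINS4 had another probe set, which measured 3.516 to 4.302 over the 18 arrays, near the median of all values; it overlapped between control (3.64 to 3.70) and decitabine plus panobinostat (3.69 to 4.16). Tests used limma, a linear model across all genes, and a gene is said to be called higher or lower where its Benjamini-Hochberg adjusted p over the 14884 genes was under 0.05. Errors given with a change are its standard error (SE), and every group had n = 3. Separate cultures are not named in the labels, so p-values measure the spread between these arrays, which may be technical. No label gives a batch. All values lay between 2.29 and 14.57, with a median of 3.84, and the arrays' medians over all probe sets between 3.81 and 3.87. No replication gene had a mean level under that overall median. Of the myeloid markers, CD4 (control mean 9.74), LYZ (7.33) and SPI1 (6.97) were clearly above that median, while CSF1R (4.34) and ANPEP (3.94) were close to it in control cells. LYZ and CSF1R were called higher than control in all 5 treated groups, by 0.78 to 2.24 and by 1.46 to 2.41. ANPEP rose in both combinations, by 1.04 with panobinostat and 1.27 with valproic acid. SPI1 fell by 0.85 with decitabine plus panobinostat (limma, adjusted p = 0.0118) and was called in no other group, and CD4 was called in none. The fibroblast marker DCN (3.39) and the epithelial markers EPCAM (3.72) and KRT8 (3.68) were below the overall median in control cells, and the erythroid marker EPOR was at 4.42. EPOR rose in every group that received an inhibitor, by 0.71 to 0.93, and EPCAM rose by 0.73 with decitabine plus panobinostat; DCN and KRT8 were called in no group. The part of these markers in the results below was not tested. T cell and B cell markers were not analysed here. The named genes had array medians above those of control, by 0.17 for decitabine plus panobinostat and by 0.16 for decitabine plus valproic acid. The changes below are on the deposited scale, and relative to these medians a fall in either combination is larger by that amount. The median change of single genes, over all genes, was -0.02 in both combinations.

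Decitabine plus panobinostat lowered most of the replication genes against control. Of 26 genes, 21 were lower, none was higher and 5 were not called, and the median change was -0.58 against -0.02 over all genes. Among all genes tested 12% were lower and 11.2% higher (22.3% and 7.90% with each array centred on its median, where 24 of the 26 were lower). Among the 5277 genes with a mean level at least that of DUT, the lowest mean of the 26, 25.9% were lower. The 3 combination arrays lay below all 3 control arrays for 22 of the 26 genes, against 18.7% of all genes. No gene of the 26 had them all above, against 16.9% of all genes. At an unadjusted p under 0.05, 1 gene, GINS4, was higher. Of the 21 called genes, these 16 kept their call with each array left out in turn: CDC6, MCM2, MCM4, MCM6, MCM7, CDC45, GINS2, GINS3, MCM10, PCNA, FEN1, TYMS, RRM1, RRM2, DUT and WDHD1. In RNA from whole cultures, fewer cells in S phase and less RNA per cell cannot be told apart. A test for any difference among the 6 groups called 21 of the 26 genes and 24.8% of all genes. These were not the same 21: this limma F test did not call MCM3 (adjusted p = 0.208) and called MCM8 (adjusted p = 0.0408).

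**Figure D1:**
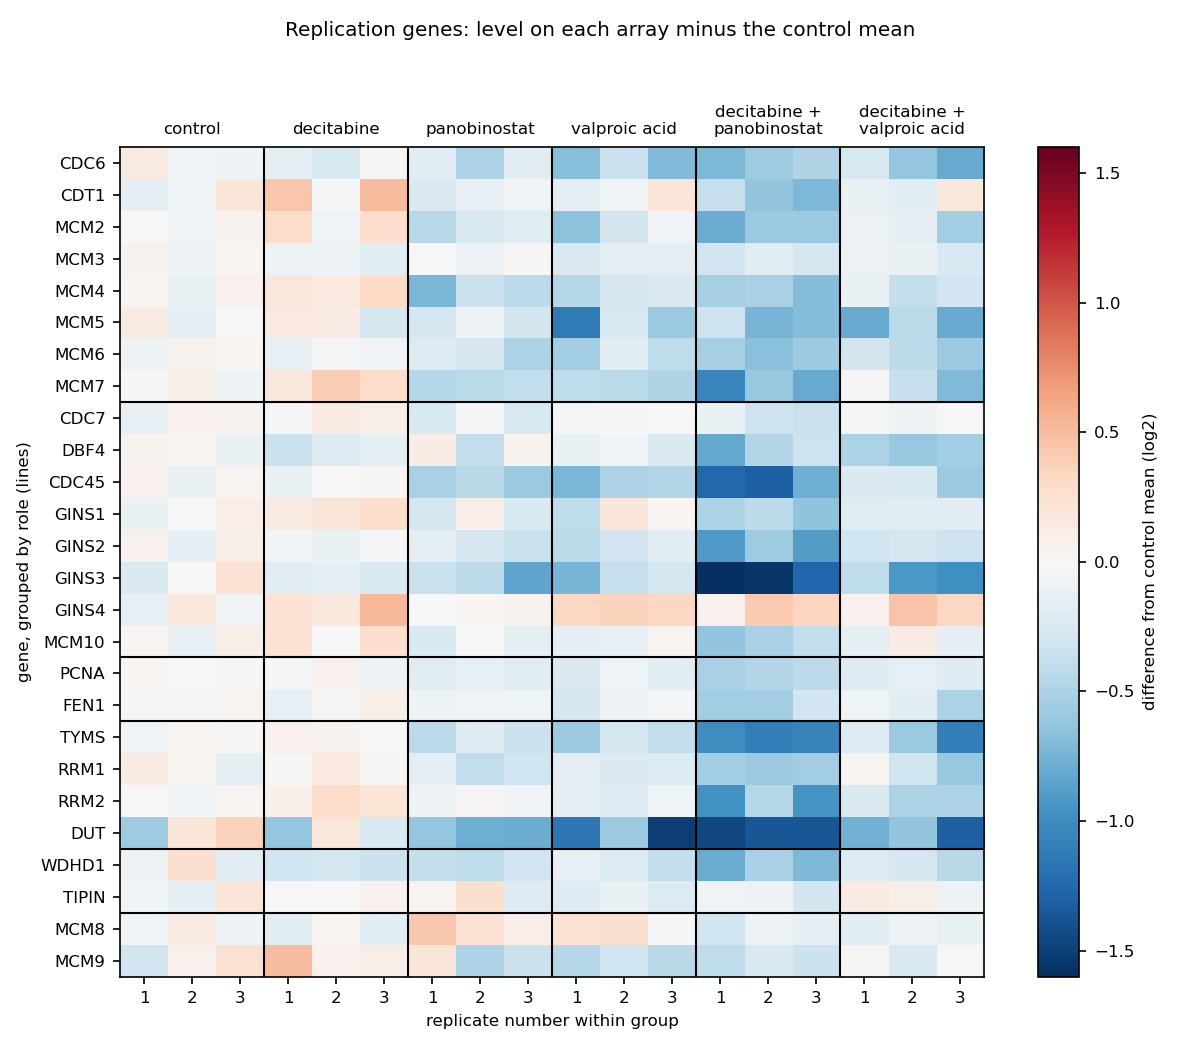
Level of each of 26 replication genes (rows, grouped by role) on each of 18 arrays (columns, 3 per group) minus the gene's control mean, in log2 units from blue (lower) to red (higher). The arrays of decitabine plus panobinostat are blue for nearly all genes, with GINS3, DUT, CDC45 and TYMS the deepest, and GINS4 stays at or above its control mean there.

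**Figure D2:**
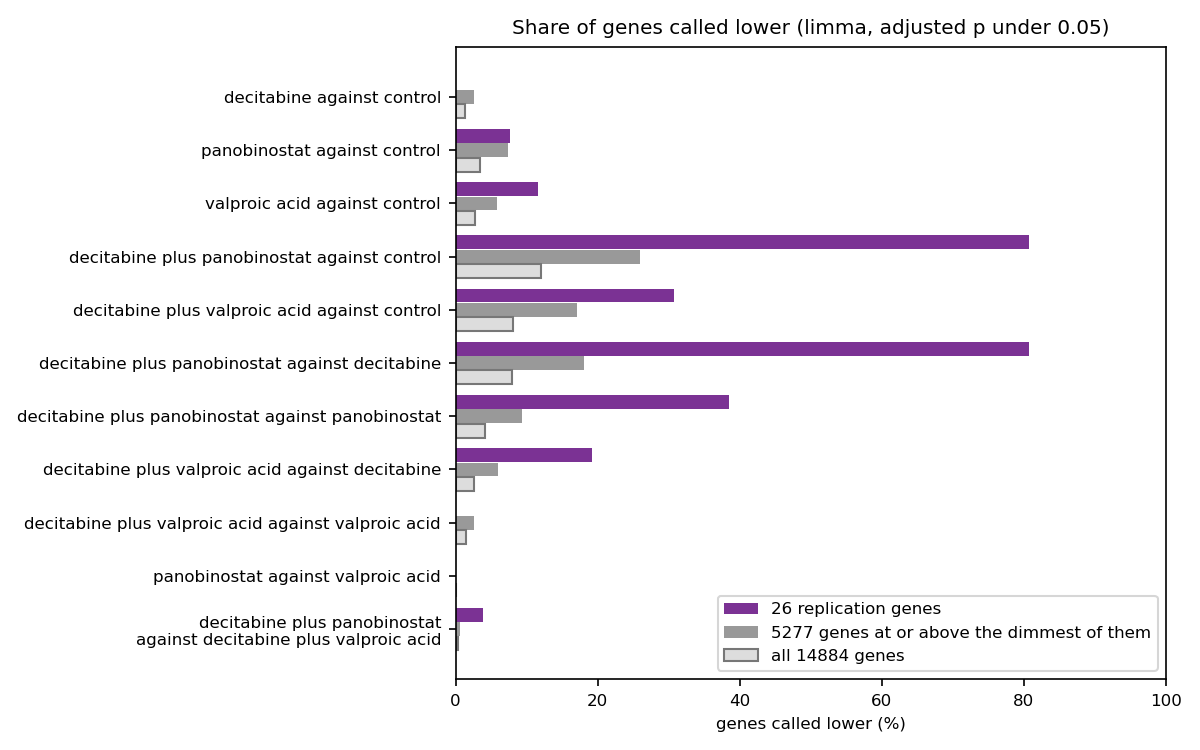
Percent of genes called lower (limma, adjusted p under 0.05) in 11 comparisons, for the 26 replication genes, the 5277 genes with a mean level at least that of DUT, and all 14884 genes. For decitabine plus panobinostat against control they are 80.8%, 25.9% and 12%; no replication gene is called lower with decitabine alone.

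Origin licensing genes fell as a whole group in this combination. All 8 measured were lower, with changes from -0.82 (MCM7) to -0.25 (MCM3) and a median of -0.59. CDC6 is the ATPase that, with CDT1, loads the MCM ring at origins. Its levels were 10.26, 10.06 and 10.03 on the control arrays, 9.98, 9.87 and 10.14 under decitabine, 9.94, 9.63 and 9.93 under panobinostat, 9.43, 9.77 and 9.42 under valproic acid, 9.40, 9.55 and 9.63 under decitabine plus panobinostat, and 9.87, 9.50 and 9.31 under decitabine plus valproic acid. The combination arrays with either inhibitor were all below the control arrays. CDC6 fell by 0.59 (SE 0.15, adjusted p = 0.00761) with decitabine plus panobinostat and by 0.56 (SE 0.15, adjusted p = 0.0153) with decitabine plus valproic acid. MCM2, a subunit of the ring, measured 9.79, 9.74 and 9.85 on the control arrays, 10.09, 9.72 and 10.06 under decitabine, 9.35, 9.54 and 9.60 under panobinostat, 9.14, 9.50 and 9.75 under valproic acid, 8.996, 9.20 and 9.20 under decitabine plus panobinostat, and 9.70, 9.64 and 9.24 under decitabine plus valproic acid. Only decitabine plus panobinostat had all 3 arrays below every array of control and of decitabine alone and also below every panobinostat array. MCM2 fell by 0.66 there (SE 0.16, adjusted p = 0.00515), while the difference of -0.27 with decitabine plus valproic acid was not called.

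The ring subunit MCM5 measured 9.78, 9.51 and 9.64 on the control arrays, 9.81, 9.78 and 9.36 under decitabine, 9.37, 9.57 and 9.35 under panobinostat, 8.51, 9.40 and 9.05 under valproic acid, 9.31, 8.89 and 8.95 under decitabine plus panobinostat, and 8.84, 9.21 and 8.84 under decitabine plus valproic acid. The control, decitabine and panobinostat arrays were all at 9.35 or above, and 1 valproic acid array, replicate 1, was the lowest of all at 8.51. MCM5 fell by 0.59 (SE 0.20, adjusted p = 0.0366) with decitabine plus panobinostat and by 0.68 (SE 0.20, adjusted p = 0.0238) with decitabine plus valproic acid. The first call was lost without control replicate 1 or 3, without combination replicate 2 or 3, and when all probe sets were tested, with an adjusted p of up to 0.124. MCM6 levels were 10.34, 10.47 and 10.45 on the control arrays, 10.28, 10.39 and 10.36 under decitabine, 10.20, 10.15 and 9.91 under panobinostat, 9.87, 10.25 and 10.02 under valproic acid, 9.89, 9.76 and 9.84 under decitabine plus panobinostat, and 10.12, 10.00 and 9.84 under decitabine plus valproic acid. The control and decitabine arrays overlapped and all 12 other arrays were below them. MCM6 fell by 0.59 (SE 0.11, adjusted p = 0.00106) with decitabine plus panobinostat and by 0.43 (adjusted p = 0.0146) with decitabine plus valproic acid. MCM7 measured 10.38, 10.49 and 10.31 on the control arrays, 10.58, 10.79 and 10.68 under decitabine, 9.93, 9.96 and 10.00 under panobinostat, 9.98, 9.96 and 9.91 under valproic acid, 9.34, 9.79 and 9.59 under decitabine plus panobinostat, and 10.40, 10.02 and 9.69 under decitabine plus valproic acid. The decitabine arrays were all above the control arrays, the arrays of either inhibitor alone lay close together below them, and those of decitabine plus panobinostat were the lowest group. MCM7 fell by 0.82 (SE 0.15, 1.76-fold, adjusted p = 0.000628) with decitabine plus panobinostat. With decitabine plus valproic acid it differed by -0.35 from control (adjusted p = 0.123), with arrays spread from 9.69 to 10.40.

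The other licensing genes fell by 0.58 or less. MCM4, also a ring subunit, had a control level of 10.52 ± 0.10 (SD, n = 3) and fell by 0.58 (SE 0.12) with decitabine plus panobinostat. CDT1, the second loading factor, went from 7.98 ± 0.18 (SD, n = 3) to 7.41 ± 0.18 (SD, n = 3), a fall of 0.57 (adjusted p = 0.0125). MCM3 moved least of the ring subunits, from 11.31 ± 0.07 (SD, n = 3) to 11.06 ± 0.08 (SD, n = 3). That fall of 0.25 had an adjusted limma p of 0.0478. With CDT1, MCM5, DBF4 and GINS1, MCM3 was 1 of 5 genes whose call some left-out array ended. Most left-out arrays ended that of MCM3. Its call held only without control replicate 2, replicate 2 of decitabine plus panobinostat, or replicate 3 of decitabine plus valproic acid.

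Among the genes that fire origins and activate the helicase, 6 of 8 were lower with decitabine plus panobinostat, with a median of -0.53. GINS3, a subunit of the 4-part GINS complex, fell most of all 26 genes. It measured 7.77, 7.997 and 8.24 on the control arrays, 7.82, 7.84 and 7.76 under decitabine, 7.65, 7.58 and 7.16 under panobinostat, 7.26, 7.63 and 7.73 under valproic acid, 6.06, 6.44 and 6.74 under decitabine plus panobinostat, and 7.59, 7.08 and 7.02 under decitabine plus valproic acid. The arrays of decitabine plus panobinostat were below every other array. GINS3 fell by 1.59 (SE 0.20), or 3.01-fold, with an adjusted p of 2.07e-05. With decitabine plus valproic acid it fell by 0.77 (SE 0.20, adjusted p = 0.0121). CDC45, which joins MCM and GINS in the active helicase, measured 8.73, 8.55 and 8.71 on the control arrays, 8.56, 8.65 and 8.68 under decitabine, 8.14, 8.22 and 8.07 under panobinostat, 7.94, 8.17 and 8.20 under valproic acid, 7.40, 7.36 and 7.88 under decitabine plus panobinostat, and 8.44, 8.42 and 8.08 under decitabine plus valproic acid. Control and decitabine arrays overlapped, the inhibitor arrays were below them, and the arrays of decitabine plus panobinostat were below all others. CDC45 fell by 1.12 (SE 0.14, 2.17-fold, adjusted p = 2.05e-05) with decitabine plus panobinostat. The difference of -0.35 with decitabine plus valproic acid was not called (adjusted p = 0.096).

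GINS2, another subunit of the complex, measured 10.28, 10.05 and 10.30 on the control arrays, 10.17, 10.10 and 10.18 under decitabine, 10.06, 9.95 and 9.85 under panobinostat, 9.79, 9.91 and 10.04 under valproic acid, 9.30, 9.64 and 9.32 under decitabine plus panobinostat, and 9.90, 9.95 and 9.88 under decitabine plus valproic acid. Here too the arrays of decitabine plus panobinostat lay below every other array. GINS2 fell by 0.79 (SE 0.11, 1.73-fold, adjusted p = 7.06e-05). GINS1 fell by 0.52 (SE 0.14, adjusted p = 0.0117) from a control level of 10.32 ± 0.11 (SD, n = 3). The fourth subunit, GINS4, measured 7.68, 7.996 and 7.76 in control and 7.88, 8.23 and 8.16 with decitabine plus panobinostat, overlapping groups, and its difference of 0.28 was not called (adjusted p = 0.153). DBF4, the activating subunit of the CDC7 kinase, fell by 0.54 (adjusted p = 0.00976), and its partner CDC7 differed by -0.27 and was not called (adjusted p = 0.068). MCM10, a factor needed for helicase activation, fell by 0.51 (SE 0.12, adjusted p = 0.00349).

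Both measured genes of the clamp and lagging strand were lower with decitabine plus panobinostat. PCNA, the sliding clamp, measured 12.20, 12.15 and 12.13 in control, 11.65, 11.70 and 11.74 with decitabine plus panobinostat and 11.95, 12.03 and 11.95 with decitabine plus valproic acid. The arrays with decitabine plus panobinostat did not overlap any other group. PCNA fell by 0.47 (SE 0.08, adjusted p = 0.000538), a small change with a residual SD of 0.058, lower than in all but 0.450% of genes. FEN1, the flap nuclease that trims Okazaki fragments, fell by 0.47 (SE 0.12, adjusted p = 0.00758).

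The nucleotide supply genes had the lowest median of the roles, -0.93, and all 4 were lower. DUT, the dUTPase that keeps uracil out of DNA, measured 6.47, 7.23 and 7.41 on the control arrays, 6.42, 7.22 and 6.79 under decitabine, 6.42, 6.26 and 6.24 under panobinostat, 5.89, 6.45 and 5.54 under valproic acid, 5.58, 5.66 and 5.68 under decitabine plus panobinostat, and 6.27, 6.41 and 5.73 under decitabine plus valproic acid. Its arrays spread widely: control replicate 1 was at 6.47, within the range of the decitabine arrays, and the residual SD of 0.355 was the highest of the 26 genes. The arrays of decitabine plus panobinostat, between 5.58 and 5.68, were close together and below all control arrays. DUT fell by 1.40 (SE 0.26, 2.64-fold, adjusted p = 0.000845) with decitabine plus panobinostat and by 0.90 (SE 0.26, adjusted p = 0.0253) with decitabine plus valproic acid. TYMS, thymidylate synthase, measured 11.88, 11.99 and 11.96 on the control arrays, 12.01, 11.996 and 11.93 under decitabine, 11.52, 11.74 and 11.60 under panobinostat, 11.36, 11.66 and 11.55 under valproic acid, 10.94, 10.83 and 10.87 under decitabine plus panobinostat, and 11.72, 11.35 and 10.85 under decitabine plus valproic acid. With decitabine plus panobinostat the arrays were tight and near 10.9, while those of decitabine plus valproic acid ran from 11.72 down to 10.85. TYMS fell by 1.06 (SE 0.16, 2.09-fold, adjusted p = 0.000117) and by 0.64 (SE 0.16, adjusted p = 0.0105) in these groups.

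RRM2, the regulated small subunit of ribonucleotide reductase, measured 9.55, 9.51 and 9.58 on the control arrays, 9.63, 9.84 and 9.76 under decitabine, 9.46, 9.57 and 9.48 under panobinostat, 9.40, 9.34 and 9.47 under valproic acid, 8.57, 9.09 and 8.61 under decitabine plus panobinostat, and 9.32, 9.04 and 9.05 under decitabine plus valproic acid. Decitabine arrays were all above the control arrays, single inhibitor arrays were close to control, and both combinations were below all of these. RRM2 fell by 0.79 (SE 0.13, 1.73-fold, adjusted p = 0.000215) with decitabine plus panobinostat and by 0.41 (SE 0.13, adjusted p = 0.035) with decitabine plus valproic acid. RRM1, the large subunit, went from 10.39 ± 0.13 (SD, n = 3) to 9.83 ± 0.03 (SD, n = 3), a fall of 0.56 (adjusted p = 0.00527).

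Of the fork protection genes, WDHD1, an adaptor that ties the helicase to DNA polymerase alpha, measured 9.79, 10.12 and 9.69 on the control arrays, 9.55, 9.58 and 9.52 under decitabine, 9.48, 9.46 and 9.56 under panobinostat, 9.74, 9.64 and 9.49 under valproic acid, 9.08, 9.34 and 9.15 under decitabine plus panobinostat, and 9.66, 9.59 and 9.42 under decitabine plus valproic acid. The arrays of decitabine plus panobinostat were below every other array, and control replicate 2 was the highest at 10.12. WDHD1 fell by 0.67 (SE 0.12, adjusted p = 0.000487). TIPIN, which stabilises stalled forks together with TIMELESS, differed by -0.15 and was not called. MCM8 and MCM9 form a separate helicase used in recombination repair, and neither was called, with differences of -0.19 (adjusted p = 0.293) and -0.33 (adjusted p = 0.211).

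**Figure D3:**
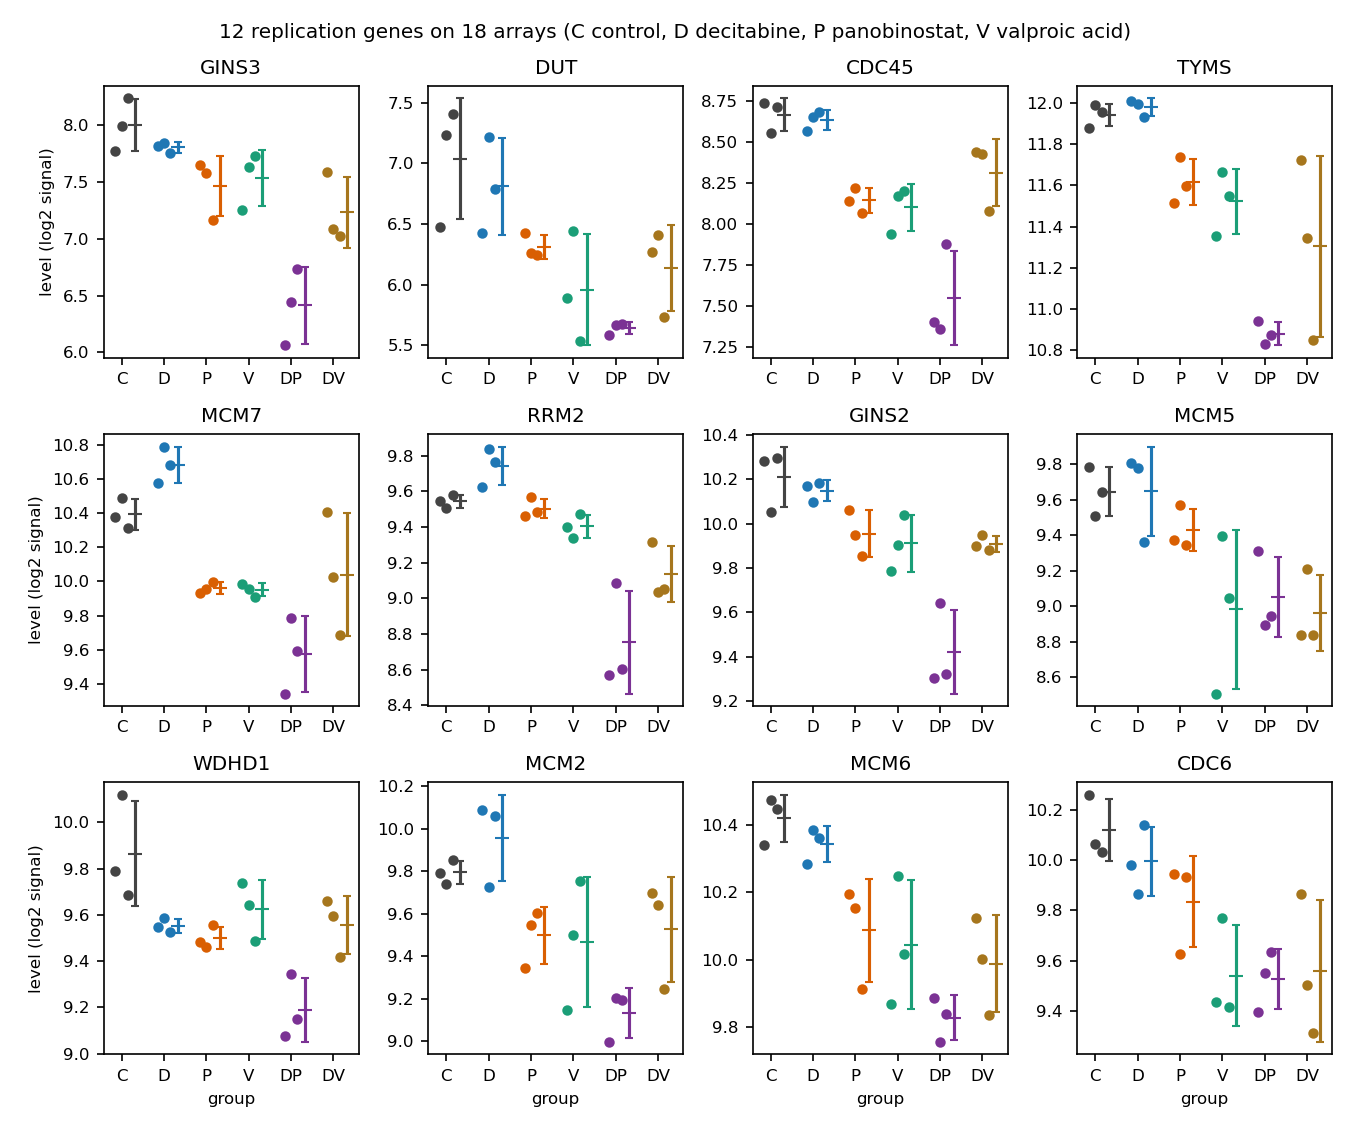
Level (log2 signal) of 12 replication genes on each array (points), by group, with the group mean and SD beside the points (n = 3); C control, D decitabine, P panobinostat, V valproic acid, DP and DV the combinations. For GINS3, CDC45, GINS2 and WDHD1 the DP arrays lie below all others, and the DV arrays of TYMS spread from 10.85 to 11.72.

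Decitabine alone moved no replication gene past the threshold. None of the 26 was called by limma, and none with a trended and robust prior, with 1.39% of all genes called lower and 2.57% higher (2.39% and 2.09% with centred arrays). The median change was 0.01, 12 genes had a negative and 14 a positive difference. Unadjusted, 2 genes had a p under 0.05: WDHD1 differed by -0.31 (95% interval -0.56 to -0.06) and GINS4 by 0.31 (0.03 to 0.58). The arrays were fully separated from control for 2 genes below and 4 above, against 11.2% and 11.5% of all genes. MCM7 was the largest of those above, at 10.58, 10.79 and 10.68 against 10.38, 10.49 and 10.31, a difference of 0.29 with an adjusted p of 0.349.

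Panobinostat alone lowered 2 of the 26 genes, with a median of -0.21. Over all genes 3.47% were lower and 3.92% higher (5.06% and 3.41% with centred arrays), and among genes with a mean level at least that of DUT 7.45% were lower, near the 7.69% of the replication genes. MCM4 measured 10.56, 10.40 and 10.59 in control and 9.79, 10.18 and 10.10 with panobinostat, groups that did not overlap, and fell by 0.50 (SE 0.12, adjusted p = 0.0154). CDC45 fell by 0.52 (SE 0.14, adjusted p = 0.0282). The count was 1 without control replicate 1 or panobinostat replicate 3, and 0 without control replicate 3 or panobinostat replicate 1. Though few were called, 23 of 26 differences were negative, and MCM8 was the highest at 0.26 (adjusted p = 0.228).

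Valproic acid alone lowered 3 genes, CDC6, CDC45 and DUT, with a median over the 26 of -0.22. Over all genes 2.74% were lower and 4.73% higher (4.18% and 3.66% with centred arrays, where 5 of the 26 were lower). CDC6 fell by 0.58 (SE 0.15, adjusted p = 0.025), against 0.59 and 0.56 in the combinations. CDC45 fell by 0.56 (SE 0.14, adjusted p = 0.0195) and DUT by 1.08 (SE 0.26, adjusted p = 0.0185). The count was 1 without control replicate 1 or 2 or without valproic acid replicate 3, 0 without control replicate 3 or valproic acid replicate 1, and 5 without valproic acid replicate 2. MCM5, at -0.66 (adjusted p = 0.0508), lay just outside the threshold.

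Decitabine plus valproic acid lowered 8 of the 26 genes against control: CDC6, MCM5, MCM6, DBF4, GINS3, TYMS, RRM2 and DUT. The median change was -0.28, and over all genes 8.06% were lower and 8.90% higher. With each array centred on its median 17 of the 26 and 17.8% of all genes were lower, and 6.25% of all genes were higher. Among genes with a mean level at least that of DUT 17.1% were lower. By role, the calls were 3 of 8 licensing genes, 2 of 8 firing genes, 3 of 4 nucleotide genes and neither of PCNA and FEN1. DBF4 measured 10.70, 10.69 and 10.54 in control and 10.14, 10.04 and 10.10 with this combination, without overlap, and fell by 0.55 (SE 0.14, adjusted p = 0.012). Replicate 3 of the combination had the lowest median over the 26 genes, 9.55, against 9.88 and 9.79 for replicates 1 and 2 and 10.09 to 10.22 in control. The count was 2 without that replicate, 5 without replicate 2 of the combination or control replicate 1, and 4 without control replicate 3. DBF4 and TYMS were called whichever array was left out.

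Adding panobinostat to decitabine lowered 21 of the 26 genes against decitabine alone, with a median of -0.61. Over all genes 7.91% were lower and 7.66% higher (11.9% and 5.76% with centred arrays, where 21 of the 26 were lower again). All 26 differences were negative, and 15 genes kept their call in every fit that left out 1 array. GINS3 fell by 1.39 (SE 0.20), DUT by 1.17 (SE 0.26), MCM7 by 1.11 (SE 0.15) and TYMS by 1.10 (SE 0.16), with adjusted p of 0.000189, 0.00594, 0.000132 and 0.000229. MCM3, DBF4, GINS4, TIPIN and MCM8 were not called. CDC7 (-0.34) and MCM9 (-0.55), which were not called against control, were lower here.

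Adding decitabine to panobinostat lowered 10 genes against panobinostat alone: DBF4, CDC45, GINS2, GINS3, MCM10, PCNA, FEN1, TYMS, RRM2 and MCM8. Over all genes 4.13% were lower and 5.42% higher (7.71% and 3.97% with centred arrays, where 15 of the 26 were lower). By role, the calls were 0 of 8 licensing genes, 5 of 8 firing genes, both PCNA and FEN1, 2 of 4 nucleotide genes and MCM8. Still, all 8 licensing differences were negative, with a median of -0.34 and 5 at an unadjusted limma p under 0.05. The firing genes had a median of -0.43, with 6 at that level. Differences between roles were not tested. GINS3 fell by 1.05 (SE 0.20, adjusted p = 0.00255), RRM2 by 0.75 (SE 0.13, adjusted p = 0.00115) and TYMS by 0.73 (SE 0.16, adjusted p = 0.00726). MCM4, one of the 2 genes lowered by panobinostat alone, differed by -0.09 (95% interval -0.34 to 0.16). The count was 5 without panobinostat replicate 1 or combination replicate 2, 6 without panobinostat replicate 2 or 3, and 4 without combination replicate 1. GINS2, GINS3, TYMS and RRM2 kept their call with each array left out in turn.

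Adding valproic acid to decitabine lowered 5 genes against decitabine alone, MCM4, MCM5, MCM7, TYMS and RRM2, with a median of -0.33. Over all genes 2.57% were lower and 3.57% higher (5.15% and 2.69% with centred arrays). TYMS fell by 0.67 (SE 0.16, adjusted p = 0.0197) and MCM7 by 0.64 (SE 0.15, adjusted p = 0.0176). The count was 2 without each decitabine array in turn, 0 without combination replicate 2 or 3, and 8 without combination replicate 1. Against valproic acid alone, decitabine plus valproic acid gave no call among the 26 by limma, by default or with a trended and robust prior, and 3 at an unadjusted p under 0.05. There 1.40% of all genes were lower and 2.63% higher (2.80% and 2.06% with centred arrays), and the median of the 26 was -0.02.

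The change with both agents was set against the sum of both single-agent changes. With panobinostat 25 of 26 genes were below that sum, by a median of -0.36, against 50.7% of all genes. Only RRM2 was called: the interaction was -0.95 (SE 0.18, adjusted p = 0.0198), with 0.289% of all genes called below and 0.336% above the sum. RRM2 differed by 0.20 with decitabine and -0.04 with panobinostat alone, and by -0.79 with both. The call was lost without control replicate 2 or 3, decitabine replicate 2 or 3, or combination replicate 1 or 3, with an adjusted p of up to 0.0627. The next largest interactions were GINS3 (-0.85, adjusted p = 0.23), TYMS (-0.77, 0.164) and CDT1 (-0.75, 0.174). With valproic acid 17 of 26 genes were below the sum, by a median of -0.11, against 52.0% of all genes, and none was called by limma (1 at an unadjusted p under 0.05, none with a trended and robust prior). There 0.0470% of all genes were called below and 0.0134% above the sum.

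**Figure D4:**
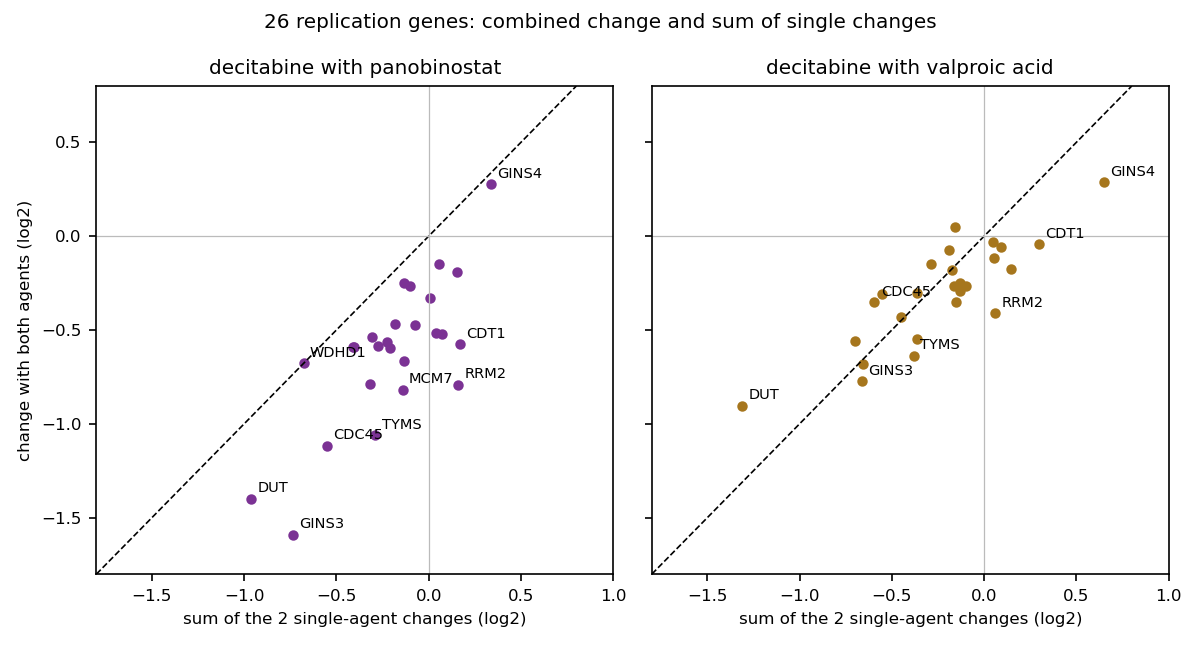
Change against control with both agents (vertical, log2) and sum of the changes with each agent alone (horizontal, log2) for 26 replication genes; the dashed line marks equality. With panobinostat 25 of 26 points lie below the line, RRM2 farthest; with valproic acid 17 of 26 do.

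No replication gene separated the inhibitors given alone past the threshold. Panobinostat against valproic acid gave no call among the 26 by limma, by default or with a trended and robust prior, and 2 at an unadjusted p under 0.05, with 0.0470% of all genes lower and 0.0739% higher. The intervals leave room for differences: for MCM5 the difference was 0.44 (95% interval 0.03 to 0.86) and for GINS4 -0.31 (-0.59 to -0.04). Between the combinations, decitabine plus panobinostat was lower than decitabine plus valproic acid for CDC45 only, by 0.76 (SE 0.14, adjusted p = 0.0201). Over all genes 0.282% were lower and 0.370% higher. Of the 26 differences 24 were negative, with a median of -0.30 against -0.01 over all genes, and the arrays were fully separated for 13 genes, all lower, against 8.01% of all genes. GINS3 (-0.82, adjusted p = 0.0739), GINS2 (-0.49, 0.0614) and MCM10 (-0.46, 0.0864) lay outside the threshold. The count was 0 without replicate 1 of decitabine plus panobinostat or replicate 1 or 2 of decitabine plus valproic acid. Without replicate 2 of decitabine plus panobinostat CDC45 lost its call and GINS2 and RRM2 were called instead. Without replicate 3 of decitabine plus valproic acid CDC45, MCM7 and TYMS were called.

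Averaged over the 26 genes, the level was 9.83 ± 0.05 (SD, n = 3) in control, 9.86 ± 0.02 under decitabine, 9.60 ± 0.03 under panobinostat, 9.56 ± 0.10 under valproic acid, 9.22 ± 0.05 under decitabine plus panobinostat and 9.53 ± 0.12 under decitabine plus valproic acid. The last group overlaps both single inhibitors. Decitabine plus panobinostat had the lowest group mean for 21 of the 26 genes. The highest was with decitabine for 12 and in control for 11. Across the 18 arrays the 325 pairs of these genes had a median Pearson r of 0.62, against 0.02 between them and other genes. The arrays share their treatments, so this describes the groups as much as the genes: for deviations from the group means the medians were 0.15 and -0.00. PCNA and CDC45 had the highest r with each other (0.92), and GINS4 (median r with the others -0.23), MCM8 (0.15) and TIPIN (0.36) had the lowest.

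Genes that surround the replication machinery were counted in lists chosen for this purpose. With decitabine plus panobinostat against control, where 12% of all genes were lower and 11.2% higher (22.3% and 7.90% with centred arrays), 11 of 21 S phase regulators were lower and none higher, with a median of -0.46. RECQL4, a helicase that acts at initiation, fell by 1.39, the phosphatase CDC25A by 1.21, the fork protein TIMELESS by 0.74 and the checkpoint kinase ATR by 0.69. Of 14 replisome accessory and chromatin assembly genes 9 were lower and none higher. Among them UNG, which removes uracil from DNA, fell by 1.98, RNASEH1 by 1.19, MSH6 by 0.75 and EXO1 by 0.74. Of 13 other nucleotide supply genes 8 were lower and 1 higher. UMPS, of pyrimidine synthesis, fell by 1.38, CTPS1 by 1.26 and ATIC, of purine synthesis, by 1.05. SAMHD1, which breaks deoxynucleotides down, rose by 1.29 (SE 0.24, adjusted p = 0.000656).

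Of 22 genes of G2 and mitosis 4 were lower than control in decitabine plus panobinostat (18.2%) and none was higher, with a median of -0.01. Over all genes 12% were lower, and 25.9% among those with a mean level at least that of DUT. Against decitabine 6 of these 22 were lower (27.3%, against 7.91% of all genes and 18.1% of those at least as bright as DUT). There 20 differences were negative and the median was -0.13. Differences between lists were not tested. Against control, FOXM1, a transcription factor of late cell cycle genes, fell by 0.69, ESPL1 by 0.50, PLK1 by 0.37 and TTK by 0.32. Relative to the shift of the array medians that list's median is lower by 0.17, as are those of the other lists. The median change of single genes, over all genes, was only -0.02 there. Only 4 of 14 listed cell cycle inhibitors were tested, and of these TP53INP1 was higher, by 2.97 (SE 0.39). The other 3 were not called, the lowest at -0.66, and the median of the 4 was 0.23. Of 13 listed translesion and repair polymerase genes 4 were tested, and none was called (1 at an unadjusted p under 0.05).

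With decitabine plus valproic acid, where 8.06% of all genes were lower and 8.90% higher (17.8% and 6.25% with centred arrays), the counts were 5 lower and 1 higher of 21 S phase regulators, 6 lower and 1 higher of 14 accessory genes, 3 lower and 1 higher of 13 nucleotide genes and 0 lower and 1 higher of 22 G2 and mitosis genes. The shares lower were 23.8%, 42.9%, 23.1% and 0%, on the deposited scale. CDC25A fell by 0.75 and RECQL4 by 0.90, UNG by 1.34, and CTPS1 by 0.73 and ATIC by 0.73. The histone chaperone ASF1B rose by 0.61, E2F7 by 0.46, SAMHD1 by 1.07 and NEK2 by 0.60. With decitabine alone, where 1.39% of all genes were lower and 2.57% higher, ATR fell by 0.46 and ASF1B rose by 0.48. They were 1 of 21 S phase regulators and 1 of 14 accessory genes, and no other gene of these 4 lists was called. Panobinostat alone lowered 3 of 21 S phase regulators, 2 of 14 accessory genes, 2 of 13 nucleotide genes and 1 of 22 mitotic genes, against 3.47% of all genes, so that the mitotic share of 4.55% was near that of all genes. CDC25A fell by 0.50 and RNASEH1 by 0.98. Valproic acid alone lowered 1, 2, 2 and 0 genes of these lists, against 2.74% of all genes (4.73% were higher), among them UNG by 1.23, and raised 1 S phase regulator, E2F7, by 0.59, and 2 mitotic genes, BUB1 by 0.32 and NEK2 by 0.71.

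**Figure D5:**
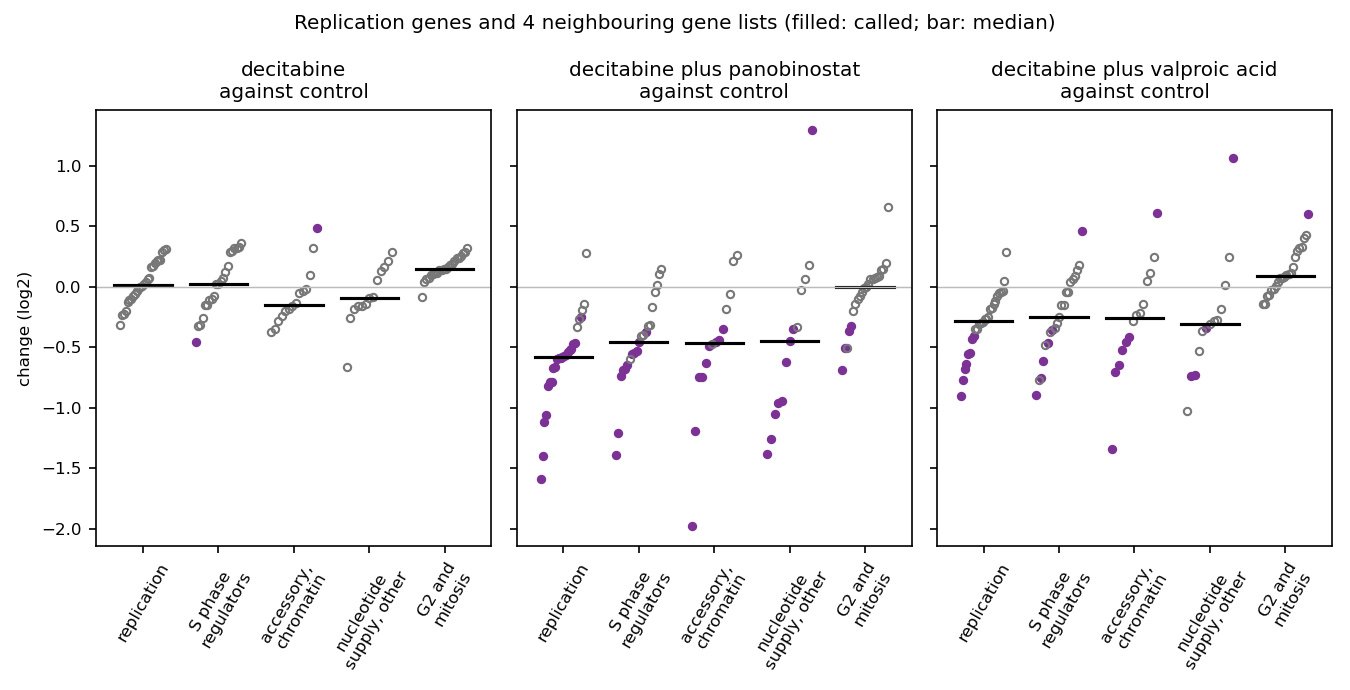
Change against control (log2) of each measured gene of 5 lists with decitabine alone and with either combination; filled points are called (limma, adjusted p under 0.05) and bars are list medians. With decitabine plus panobinostat the replication list has a median of -0.58 and the G2 and mitosis list one of -0.01.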

How the data were processed

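Per the labels, RNA from 18 samples of U937 cells was isolated with TRIZOL and an RNeasy column and labelled with biotin for Affymetrix arrays. The authors' deposited log2 values were made with RMA, per the submitters' processing notes; RMA's version and the genome build were not given in the sources used here, and raw arrays were not used. Of 48226 probe sets, 16098 had 1 symbol in the array annotation, 0 several and 32128 none. Symbols were updated through RefSeq gene identifiers, and the brightest probe set stood for each of 779 genes with more than 1, leaving 14884.

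limma 3.58.1 in R 4.3.3 fitted 1 mean per group, with 12 residual degrees of freedom, 13 comparisons and an F test, and Benjamini-Hochberg adjustment over all genes. The code was tested on simulated data. Every member may be named by role. All 18 values are given for the 12 members called against control with the largest changes, and up to 4 called genes for each other list. The members, lists and tests were chosen with earlier results of these data known. Alternatives were a replicate block, a trended robust prior, probe set handling, a level filter, array centring, fits of the compared groups alone, and leaving out each array. Arrays hold no counts, so the precision is set by the number of arrays and the spread between them. Promoters of MCM4, MCM5 and GINS4 were not used here.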

Additional observations from a re-analysis of the deposited data

Results flagged for a closer look

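For RRM2 the effect of panobinostat differed between cells with and without decitabine. The interaction was -0.95 on the log2 scale (limma, SE 0.18, adjusted p = 0.0198). Panobinostat alone differed from control by -0.04, and panobinostat added to decitabine lowered RRM2 by 0.99 (adjusted p = 9.77e-05). The arrays measured 9.63, 9.84 and 9.76 with decitabine and 8.57, 9.09 and 8.61 with both agents, with no overlap. Leaving out each of 6 arrays in turn ended the call.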

How the results depend on the processing

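Only centring and leaving out an array could move the 25 log2 changes recomputed, and both kept every direction. The other alternatives leave these changes as they are and could alter only the calls. Counts of called replication genes with decitabine plus panobinostat, against control or against decitabine, stayed within 1.5 times under every alternative. A trended and robust prior called 6 genes with valproic acid and 4 between the combinations. Centring each array on its median called 5 with valproic acid and 17 with decitabine plus valproic acid. Fitting only the groups compared called 1 gene for panobinostat, 1 for valproic acid, 3 for decitabine plus valproic acid, 4 in decitabine plus panobinostat against panobinostat, 0 in decitabine plus valproic acid against decitabine, 0 between the combinations, and 2 for the interaction with panobinostat. The cause was not tested, though these fits have fewer arrays. Leaving out 1 array of the groups compared gave 0 to 2 calls for panobinostat and 0 to 5 for valproic acid against control. For decitabine plus panobinostat it gave 17 to 21, and for decitabine plus valproic acid 2 to 9, against control. It gave 16 to 17 in decitabine plus panobinostat against decitabine, 4 to 8 against panobinostat, 0 to 8 in decitabine plus valproic acid against decitabine, 0 to 3 between the combinations and 0 to 1 for the interaction with panobinostat. With the replicate block 20 of the 21 genes with decitabine plus panobinostat against control were called, 18 of 21 against decitabine and 7 of 10 against panobinostat. The labels do not say what arrays of the same replicate number share. Such arrays correlated in their deviations at -0.11 to 0.10 (median 0.02), and 1 of 45 pairs exceeded 0.1. Arrays of different numbers ran from -0.12 to 0.15 (median -0.003), and 2 of 90 pairs exceeded 0.1. These values do not show whether the numbers mark pairs. Of the single changes, 59 recomputed values lost the call and 272 kept it; the losses lay in comparisons other than those of decitabine plus panobinostat with control except those of MCM5. Signals near background are compressed, which limits what DUT, the dimmest of these genes, can show.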

Other observations

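MCM7 hosts the precursors of 3 microRNAs on its own strand, MIR106B, MIR93 and MIR25, each with a probe set of its own. They were looked at after their values were seen. The mature sequences that these precursors give are shown with the seed (bases 2 to 8) in capitals, from RefSeq (GRCh38.p14).
hsa-miR-106b-5p, chr7:100094043-100094063, minus strand: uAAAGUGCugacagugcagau
hsa-miR-93-5p, chr7:100093815-100093837, minus strand: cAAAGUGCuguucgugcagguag
hsa-miR-25-3p, chr7:100093571-100093592, minus strand: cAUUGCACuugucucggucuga
The first pair share a seed and the third has another. The arrays read the precursor region and not the mature RNA. MIR25 measured 4.98, 4.55 and 4.51 in control and 3.30, 3.48 and 3.47 with decitabine plus panobinostat, without overlap, and was called lower (limma, adjusted p = 0.00406). MIR93 measured 4.08, 4.27 and 4.26 and 3.59, 3.60 and 3.87, and was also called lower (adjusted p = 0.0188). MIR106B differed by -0.21 and was not called (adjusted p = 0.309). These levels lie close to the median of all values, 3.84, and those of MIR25 with decitabine plus panobinostat lie below it, so no size of change is given. With decitabine plus valproic acid MIR25 ran from 4.94 down to 3.25 over the 3 arrays, and none of the 3 was called.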
